A study of Mus musculus with 6 samples.

Results

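The genes of glycolysis and of the pentose phosphate pathway, 39 in number, were followed in c-Kit+ splenocytes from mice with acute myeloid leukaemia (AML) and from mice with a myeloproliferative neoplasm (MPN). They were taken by symbol from a table of 24054 genes and cover glucose uptake, the glycolytic enzymes and their regulators, lactate production and export, the pyruvate dehydrogenase gate and both arms of the pentose phosphate pathway. All 39 were found, and 38 reached at least 1 TPM (a transcript level scaled to transcript length, with the same total in each library) in at least 3 of the 6 libraries and were tested. Pdk4, a kinase that switches off pyruvate dehydrogenase, stayed at or below 0.07 TPM in every library.

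The AML group held 3 moribund mice labelled Flt3ITD/ITD,Dnmt3afl/- MxCre, and the MPN group 3 mice labelled Flt3ITD/ITD,Dnmt3afl/fl, with no Cre in their titles. All 6 mice thus carry the internal tandem duplication of the receptor gene Flt3, and the groups differ in the Dnmt3a genotype and in the Cre. MxCre is driven by the interferon-inducible Mx1 promoter, which is active in blood cells and in other tissues. Ages were not given in the sources used here. The series states its aim as finding expression changes that go with loss of Dnmt3a, the gene of a DNA methyltransferase. Cells were enriched on magnetic beads against CD117, the Kit receptor, and 1 poly-A library was sequenced per mouse.

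Dnmt3a had 11.5, 13.5 and 12.9 TPM in the AML mice, against 33.9, 29.3 and 33.4 TPM in the MPN mice (log2 fold change -1.28, adjusted p = 0.000879, limma). Relative depth of the libraries, read from the steps of a second table of reads scaled to length (RPKM), lay between 0.739 and 1.29. MPN replicate 1 came from another sequencing run than the other 5 libraries, and AML replicates 1 and 2 expressed the female-specific transcript Xist. Kit had 99.2, 130 and 129 TPM in the AML mice, against 145, 145 and 152 TPM in the MPN mice. It was lower in AML without overlap but did not pass (log2 difference -0.31, 95% interval -0.61 to -0.01, adjusted p = 0.103, limma). Markers of other cells also moved with the groups. The summed level of 6 progenitor markers was 818 to 1039 TPM in AML and 377 to 456 TPM in MPN libraries. All but Kit, 5 of the 6, were called higher in AML, where 20.1% of all tested genes rose. For 10 markers of mature neutrophils the sum was 5150 to 14247 TPM in AML and 20678 to 32480 TPM in MPN libraries. Of the 10, 7 were called lower, where 10.0% of all tested genes fell. For 10 monocyte and macrophage markers the sum was 645 to 1621 TPM in AML and 1654 to 2013 TPM in MPN libraries. C1qa, C1qb and C1qc were at 0 in an AML library. Erythroid markers, 10 in number, summed to 395, 143 and 49.9 TPM in the AML mice and to 549, 470 and 249 TPM in the MPN mice. B cell markers summed to 27.2 to 36.6 TPM in AML and 76.6 to 101 TPM in MPN libraries. Most of the AML sum was Cd79b, which overlapped, at 26.1 to 33.9 TPM in AML and 26.9 to 38.2 TPM in MPN libraries. The other B cell markers were each lower in AML without overlap. T and NK cell markers summed to 3.48 to 7.46 TPM in AML and 179 to 295 TPM in MPN libraries. Dendritic cell markers summed to 132 to 493 TPM in AML and 1084 to 1191 TPM in MPN libraries. Mast cell and basophil markers summed to 92.8 to 146 TPM in AML and 21.9 to 42.4 TPM in MPN libraries. Of the latter, Cpa3 and Mcpt8 were higher in AML, and Fcer1a and Ms4a2 overlapped. Cma1 and Tpsb2 were lower in AML without overlap, with means of 0.05 against 0.72 TPM and 0.013 against 0.42 TPM. Pax5, Cd3g, Cma1 and Tpsb2 of these lists were at 0 in an AML library. Called lower were 8 of 10 monocyte and macrophage, 2 of 10 erythroid and 4 of 5 tested B cell markers. So were 8 of 8 T and NK and 5 of 7 dendritic cell markers, where 10.0% of all tested genes fell. Among mast cell and basophil markers, 2 of 3 tested were called higher, where 20.1% of all tested genes rose. Their part in the differences below was not tested. In bulk samples, fewer cells of a type and less RNA per cell cannot be told apart.

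Glycolysis splits glucose into pyruvate in the cytosol and yields ATP and NADH. Lactate dehydrogenase turns pyruvate into lactate and restores NAD+, while pyruvate dehydrogenase passes it on to the citrate cycle as acetyl-CoA. The pentose phosphate pathway branches off at glucose 6-phosphate. Its oxidative arm makes NADPH and ribose 5-phosphate, and its non-oxidative arm exchanges sugar phosphates with glycolysis. Growing blast cells are known for high glucose use, and neutrophils depend largely on glycolysis and use NADPH in their oxidative burst.

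Gpi1, Aldoa, Tpi1, Gapdh, Pgk1, Pgam1, Eno1 and Ldha were higher in AML than in MPN cells, while Hk2, Eno2, Eno3, Pfkfb3 and Pfkfb4 were lower. Of the 38 tested members, 17 rose and 5 fell in AML cells at an adjusted p under 0.05 (limma, Benjamini-Hochberg over 12223 genes), and 16 did not pass. Over all tested genes, 20.1% rose and 10.0% fell. The groups did not overlap in 25 of the 38, against 50.9% of all tested genes. The members' median log2 fold change was 0.31, and that of all tested genes was 0.13. With the median ratio of all genes removed from each library, a setting chosen after seeing the data, the counts were 14 and 6 members, and 52.3% of all called genes were higher in place of 66.7%. Median scaling and quantile normalization gave 59.5% and 59.1%.

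**Figure D1:**
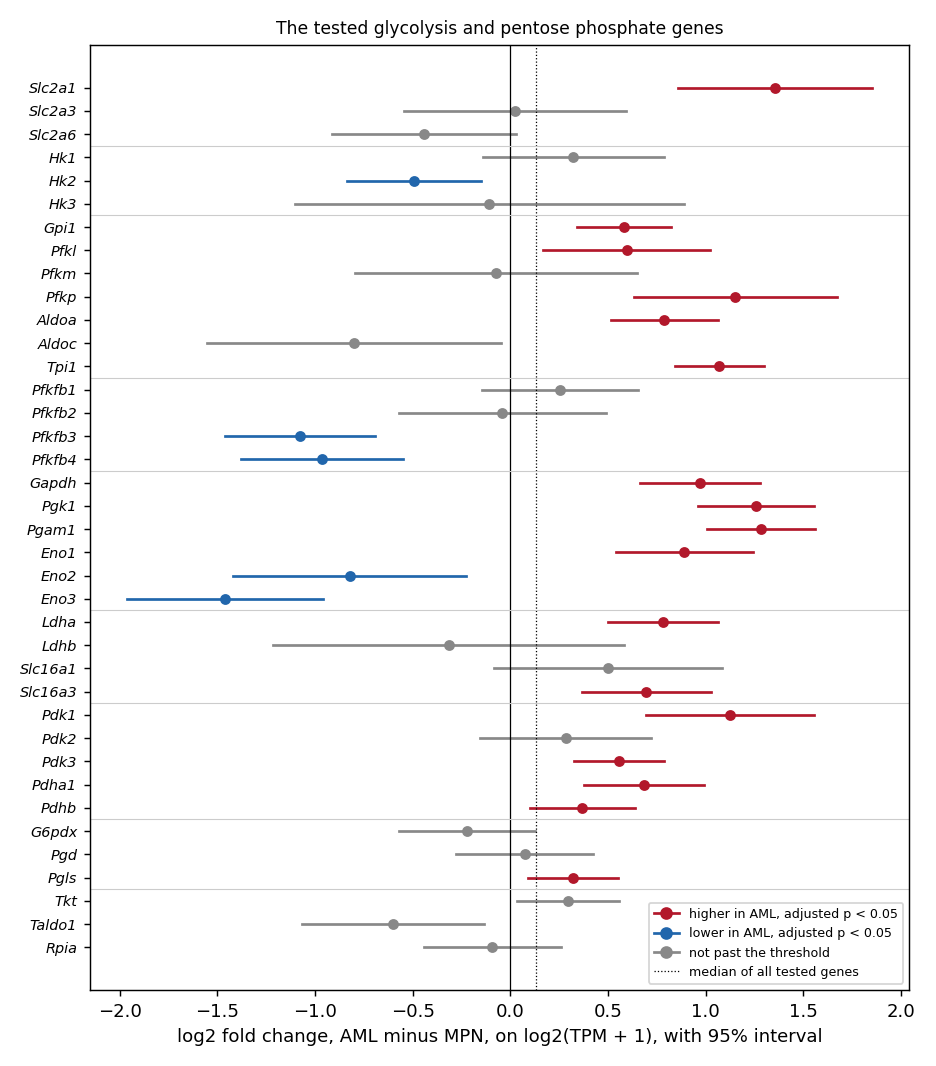
Log2 fold change of each of the 38 tested members, AML minus MPN, on the log2(TPM + 1) scale, with points for estimates and bars for 95% intervals (3 mice per group); red marks genes higher and blue genes lower in AML at an adjusted p under 0.05, grey the others, and the dotted line the median of all tested genes. Gpi1, Aldoa, Tpi1, Gapdh, Pgk1, Pgam1, Eno1 and Ldha lie to the right of 0, and Pfkfb3, Pfkfb4, Eno2, Eno3 and Hk2 to its left.

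The members took 1.16%, 1.06% and 1.04% of all TPM in the AML mice, against 0.698%, 0.693% and 0.671% in the MPN mice. The 8 enzymes Gpi1, Aldoa, Tpi1, Gapdh, Pgk1, Pgam1, Eno1 and Ldha summed to 9073, 7737 and 7815 TPM in the AML mice, against 4254, 4316 and 4219 TPM in the MPN mice. The sum of the means was 1.93-fold higher in AML. TPM sums to the same total in each library, and the 20 most abundant genes took 8.47% to 12.2% of it in AML and 16.1% to 17.9% in MPN libraries. Its part in the folds was not tested beyond the scalings given above. Pgk1, Pdha1, Pdk3, G6pdx and Pfkfb1, 5 of the members, lie on chromosome X.

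Of the 22 called members, 10 stayed past the threshold under each of the 17 alternatives run. They were Slc2a1, Pfkp, Aldoa, Tpi1, Gapdh, Pgk1, Pgam1 and Ldha among those that rose, and Pfkfb3 and Eno3 among those that fell. A further 6, Gpi1, Pfkfb4, Eno1, Pdk1, Pdk3 and Pdha1, were lost only with a term for sex, which leaves the single male AML mouse against the MPN mice and gave 8 higher and 2 lower members. Without MPN replicate 1, within a single sequencing run, 14 members were higher and 3 lower. None of the 22 changed direction in the alternatives run.

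Slc2a1, the glucose transporter GLUT1, was the uptake gene that rose. It had 39.7, 24.9 and 38.3 TPM in the AML mice, against 10.9, 12.1 and 14.8 TPM in the MPN mice. The groups did not overlap, and the means, 34.3 ± 8.21 and 12.6 ± 2.0 TPM (SD, n = 3 each), stood at a log2 fold change of 1.35 ± 0.21 (SE; adjusted p = 0.00408, limma). Slc2a3, which encodes GLUT3, had 62.6, 32.7 and 35.5 TPM in AML and 45.0, 36.4 and 42.2 TPM in MPN mice. Its groups overlapped and the 95% interval of the log2 difference ran over 0, from -0.54 to 0.59. Slc2a6, a transporter of the lysosomal membrane, had 9.28 to 15.0 TPM in AML and 13.9 to 17.1 TPM in MPN mice (adjusted p = 0.132, limma). Slc2a1 thus took 38.5% ± 6.17 of the summed TPM of the 3 transporters in AML and 18.1% ± 2.25 in MPN mice (SD, n = 3 each). Slc2a3 had the larger mean share in both groups, 47.8% in AML and 59.2% in MPN.

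Hexokinases trap glucose in the cell as glucose 6-phosphate. Hk2, the inducible form, fell, with 20.6, 25.2 and 20.2 TPM in the AML mice, against 33.9, 32.5 and 27.7 TPM in the MPN mice. The groups did not overlap (log2 fold change -0.49, adjusted p = 0.0404, limma), but the call was lost under 6 of 17 alternatives, among them leaving out MPN replicate 1 (adjusted p = 0.134; highest of all alternatives 0.143, lowest 0.00931). Hk1, the widely expressed form, had 117, 96.5 and 76.1 TPM in the AML mice, against 84.9, 84.7 and 60.8 TPM in the MPN mice. The order of the AML mice was that of their erythroid marker sums, a link that was not tested, and the groups overlapped (adjusted p = 0.248, limma). Hk3, a form found mainly in myeloid cells, varied most among AML mice, with 50.2, 184 and 77.4 TPM, against 108, 107 and 77.2 TPM in the MPN mice. AML replicate 2, the highest, also had the highest neutrophil and monocyte marker sums among AML mice, 14247 and 1621 TPM, and a link was not tested. Hk2 made up 10.3% ± 1.77 of the summed hexokinase TPM in AML and 15.4% ± 1.18 in MPN mice. The mean shares of Hk1 and Hk3 were 45.9% and 43.8% in AML and 37.3% and 47.4% in MPN mice by TPM, and 26.5% and 58.4% in AML and 19.5% and 59.5% in MPN mice by RPKM. Hk3 thus had the larger share in each case but the AML mean by TPM, where Hk1 led in AML replicate 1 alone, at 62.4%.

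In upper glycolysis 5 of 7 genes rose and 0 fell, where 20.1% of all tested genes rose and 10.0% fell. Gpi1, which turns glucose 6-phosphate into fructose 6-phosphate, had 632, 610 and 586 TPM in the AML mice, against 440, 380 and 402 TPM in the MPN mice (log2 fold change 0.58 ± 0.10 SE, adjusted p = 0.00631, limma). Aldoa, the main aldolase, had 605, 755 and 681 TPM in the AML mice, against 413, 395 and 369 TPM in the MPN mice (log2 fold change 0.79 ± 0.12 SE, adjusted p = 0.00339). Tpi1, which interconverts the triose phosphates, had 468, 451 and 450 TPM in the AML mice, against 223, 228 and 200 TPM in the MPN mice (log2 fold change 1.07 ± 0.10 SE, adjusted p = 0.000525). All 3 separated the groups without overlap, and Tpi1 had the tightest AML values, 456 ± 10.1 TPM (SD, n = 3).

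Phosphofructokinase, the committed step, is a tetramer built from 3 paralogues. Pfkp, the platelet type, had 125, 111 and 187 TPM in the AML mice, against 52.9, 76.4 and 57.2 TPM in the MPN mice. The groups did not overlap, and AML replicate 3 was the highest (log2 fold change 1.15 ± 0.22 SE, adjusted p = 0.00880, limma). Pfkl, the liver type, had 48.7, 79.7 and 67.9 TPM in AML and 45.0, 40.9 and 40.5 TPM in MPN mice (log2 fold change 0.60, adjusted p = 0.0447), a call lost under 11 of 17 alternatives, where the adjusted p ranged from 0.00155 to 0.182. Pfkm, the muscle type, overlapped, with 17.95 to 32.7 TPM in AML and 16.3 to 33.1 TPM in MPN mice. Pfkp held 60.3% ± 8.38 of the summed TPM of the 3 in AML and 47.4% ± 6.15 in MPN mice, with 51.8% in the lowest AML and 51.7% in the highest MPN mouse. Aldoc, a minor aldolase, had 6.90, 18.9 and 14.3 TPM in the AML mice, against 25.3, 21.5 and 20.4 TPM in the MPN mice, and did not pass (log2 difference -0.80, adjusted p = 0.0979).

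**Figure D2:**
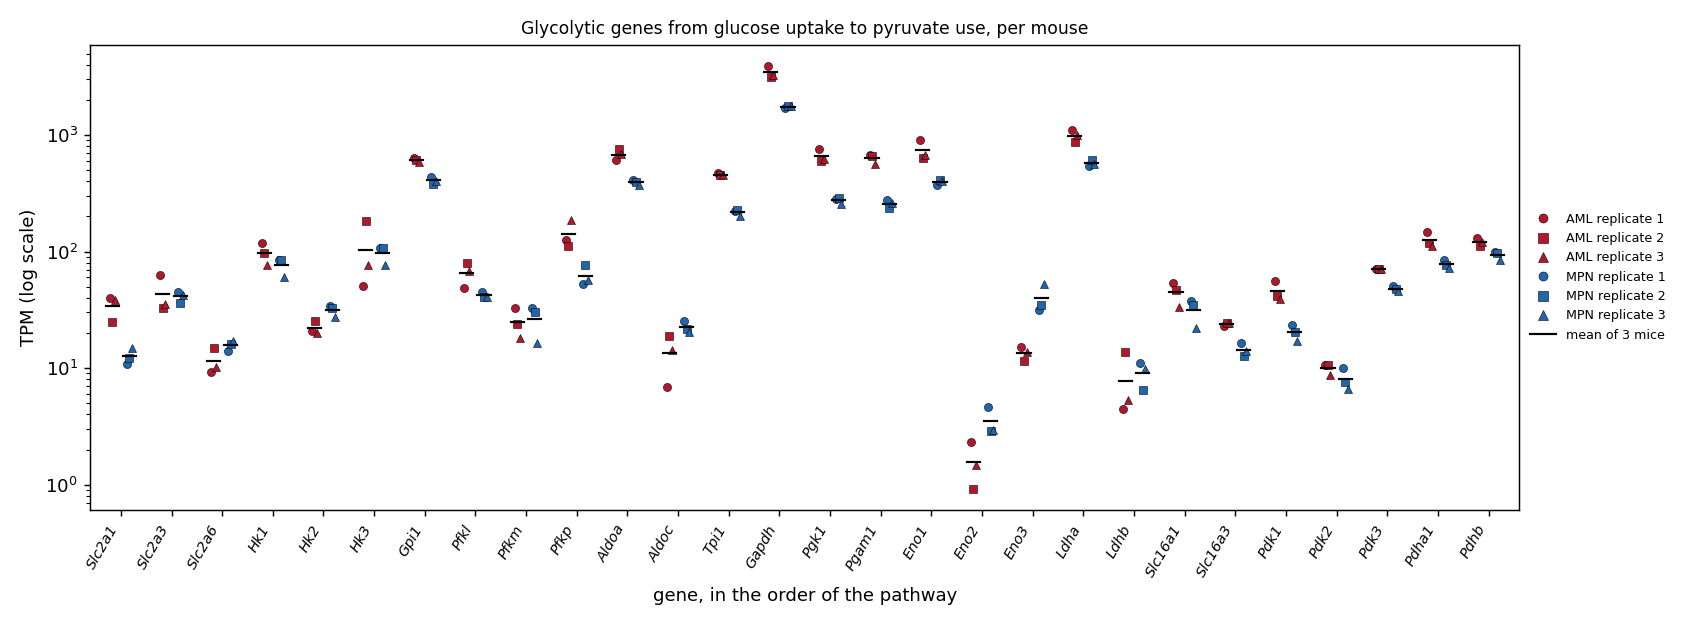
TPM on a log axis of the tested members from glucose uptake to pyruvate dehydrogenase, with AML (red) left of MPN (blue), a symbol for each mouse and a bar for the mean of 3. Gapdh is the most abundant at 3142 to 3929 TPM in AML and 1697 to 1771 TPM in MPN mice, and the minor enolases Eno2 and Eno3 lie below their MPN values.

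Lower glycolysis changed in all 6 of its genes, 4 up and 2 down, where 20.1% of all tested genes rose and 10.0% fell. Gapdh, which makes the first high-energy intermediate and NADH, had 3929, 3142 and 3253 TPM in the AML mice, against 1697, 1771 and 1770 TPM in the MPN mice (log2 fold change 0.97 ± 0.13 SE, adjusted p = 0.00234, limma). Pgk1, the first ATP-yielding enzyme, had 766, 598 and 620 TPM in the AML mice, against 285, 286 and 254 TPM in the MPN mice (log2 fold change 1.26 ± 0.13 SE, adjusted p = 0.000744). The lowest AML mouse stood above the highest MPN mouse for both genes. Pgk1 is X-linked, and the part of sex in its difference was not tested beyond the term for sex, under which it stayed past the threshold. Pgam1, phosphoglycerate mutase, had 669, 661 and 561 TPM in the AML mice, against 278, 235 and 261 TPM in the MPN mice (log2 fold change 1.28 ± 0.12 SE, adjusted p = 0.000530). Eno1, the main enolase, had 911, 640 and 668 TPM in the AML mice, against 373, 408 and 400 TPM in the MPN mice (log2 fold change 0.89 ± 0.15 SE, adjusted p = 0.00539). AML replicate 1 was the highest for Gapdh, Pgk1, Pgam1 and Eno1.

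Reads can be shared with near-identical copies. These were sought by name alone, as a member's symbol followed by -ps, -rs or b. Copies under other names were not sought, for any member. In the annotation 6 members, Aldoa, Gapdh, Pgk1, Pgam1, Eno1 and Ldha, have copies named in this way, so their levels are uncertain. Eno1b is one that the table lists apart, at 94.4, 223 and 182 TPM in the AML mice and 91.3, 32.4 and 108 TPM in the MPN mice. Adding it to Eno1 gave 1005, 863 and 850 TPM in the AML mice, against 465, 440 and 507.6 TPM in the MPN mice (log2 fold change 0.94, adjusted p = 0.00161, limma), a sum chosen after seeing the data. In the RPKM table, made separately, 16 members were higher and 5 lower.

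Both other enolases went the other way. Eno3, the muscle enolase, had 15.3, 11.4 and 13.7 TPM in the AML mice, against 31.3, 35.0 and 52.4 TPM in the MPN mice. The groups were far apart, with a log2 fold change of -1.46 ± 0.21 (SE; adjusted p = 0.00323, limma), the largest fall among the members. Eno2, the neuronal enolase, had 2.30, 0.92 and 1.46 TPM in AML and 4.59, 2.90 and 2.96 TPM in MPN mice (log2 fold change -0.82, adjusted p = 0.0464), and lost its call under 8 of 16 alternatives, where the adjusted p ranged from 0.0119 to 0.233. Eno3 took 1.80% ± 0.187 of the summed TPM of the 3 enolases in AML and 9.0% ± 2.17 in MPN mice, and Eno1 98.0% and 90.2%. Likewise Aldoc took 1.87% ± 0.673 of the aldolase TPM in AML and 5.39% ± 0.335 in MPN mice.

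**Figure D3:**
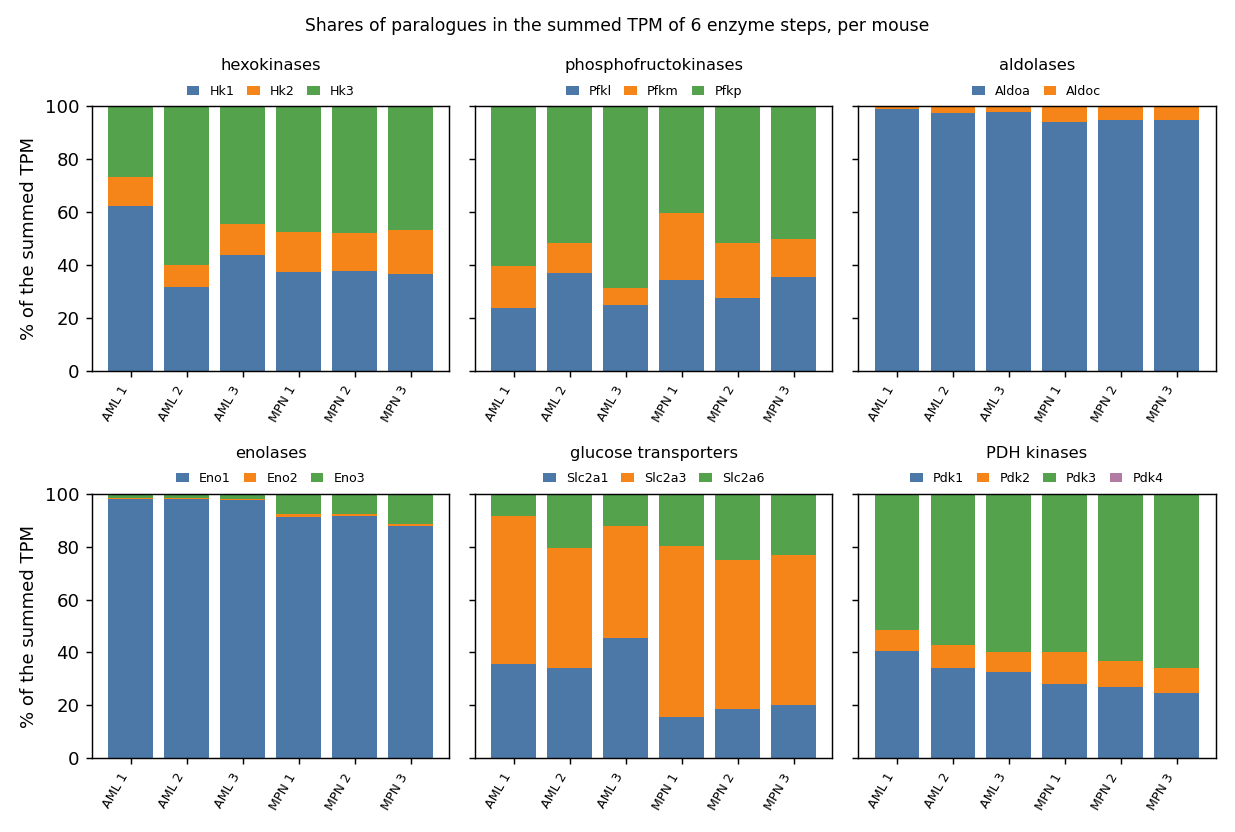
Share of each paralogue in the summed TPM of its step, in percent, with 1 bar per mouse and the AML mice left of the MPN mice. Eno3 and Aldoc take smaller slices in all 3 AML mice, Slc2a1 and Pdk1 larger ones, and the hexokinase shares differ more among the AML mice than among the MPN mice.

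The PFKFB enzymes set the level of fructose 2,6-bisphosphate, the strongest activator of phosphofructokinase. Pfkfb3, the form with the highest ratio of kinase to phosphatase activity, had 39.3, 45.1 and 41.9 TPM in the AML mice, against 81.6, 77.2 and 114 TPM in the MPN mice. No AML mouse reached the MPN range (log2 fold change -1.07 ± 0.16 SE, adjusted p = 0.00372, limma). Pfkfb4 had 10.01, 12.9 and 13.7 TPM in the AML mice, against 28.0, 20.7 and 25.3 TPM in the MPN mice (log2 fold change -0.96 ± 0.18 SE, adjusted p = 0.00746). Pfkfb1, at 3.46 to 4.24 TPM in AML and 2.71 to 3.60 TPM in MPN mice, and Pfkfb2, at 7.09 to 9.77 and 6.25 to 11.0 TPM, overlapped. The 4 summed to 62.5, 70.6 and 66.3 TPM in the AML mice, against 123, 111 and 148 TPM in the MPN mice. Pfkfb3 and Pfkfb4 thus fell where Pfkp and Pfkl rose. The sum of the neutrophil markers was also lower in AML, 5150 to 14247 against 20678 to 32480 TPM. So were the sums of the monocyte and macrophage, dendritic, B cell, and T and NK cell markers. A link of any of these to the PFKFB genes was not tested.

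Ldha, which turns pyruvate into lactate, had 1094, 879 and 996 TPM in the AML mice, against 545, 613 and 562 TPM in the MPN mice. The groups did not overlap (log2 fold change 0.78 ± 0.12 SE, adjusted p = 0.00376, limma). Ldhb, whose subunit favours the reverse reaction, was low, with 4.44, 13.6 and 5.34 TPM in AML and 11.0, 6.50 and 9.82 TPM in MPN mice. Slc16a3, the lactate exporter MCT4, had 22.9, 24.1 and 24.5 TPM in the AML mice, against 16.4, 12.8 and 14.0 TPM in the MPN mice (log2 fold change 0.70, adjusted p = 0.0106); without MPN replicate 2 the adjusted p was 0.0578, within a range of 0.00200 to 0.0881 over the alternatives. Slc16a1, the transporter MCT1, was more abundant in both groups, at 33.5 to 53.9 TPM in AML and 21.9 to 37.9 TPM in MPN mice, and did not pass (log2 difference 0.50, 95% interval -0.09 to 1.08).

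At the pyruvate dehydrogenase gate both kinases that close it and subunits of the enzyme itself rose, 4 of 5 tested genes. Over all tested genes, the share that rose was 20.1%. Pdk1 had 56.4, 41.9 and 38.9 TPM in the AML mice, against 23.6, 20.3 and 17.1 TPM in the MPN mice (log2 fold change 1.12 ± 0.19 SE, adjusted p = 0.00484, limma). Pdk3 had 71.5, 70.5 and 71.2 TPM in the AML mice, against 50.2, 47.9 and 46.0 TPM in the MPN mice (log2 fold change 0.56 ± 0.10 SE, adjusted p = 0.00648). Pdk3 remained the most abundant kinase in both groups, and the share of Pdk1 was 35.8% ± 4.27 in AML and 26.5% ± 1.83 in MPN mice. Pdha1, the catalytic alpha subunit, had 146, 119 and 112 TPM in the AML mice, against 84.0, 77.3 and 71.9 TPM in the MPN mice (log2 fold change 0.68, adjusted p = 0.00875). Pdhb, the beta subunit, had 112 to 131 TPM in AML and 84.2 to 100.1 TPM in MPN mice (log2 fold change 0.37, adjusted p = 0.0473), a call lost under 11 of 17 alternatives, with adjusted p from 0.0315 to 0.257. Pdk2, at 8.77 to 10.6 TPM in AML and 6.62 to 10 TPM in MPN mice, did not pass.

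Of the 6 pentose phosphate members 1 rose and 0 fell (limma), where 20.1% of all tested genes rose and 10.0% fell, and the log2 differences of the others lay on both sides of 0. G6pdx, the entry enzyme that makes NADPH, had 95.01, 129 and 108 TPM in the AML mice, against 148, 119 and 120 TPM in the MPN mice (log2 difference -0.22, 95% interval -0.57 to 0.13, adjusted p = 0.284, limma). Pgd, the second NADPH-yielding enzyme, had 147, 192 and 150 TPM in the AML mice, against 180, 142 and 142 TPM in the MPN mice (log2 difference 0.07, 95% interval -0.28 to 0.42, adjusted p = 0.735). Both overlapped, and their intervals leave out a 2-fold change in either direction. Pgls, the lactonase between them, had 235, 224 and 228 TPM in AML and 172, 179 and 198 TPM in MPN mice (log2 fold change 0.32, adjusted p = 0.0449), but lost its call under 12 of 17 alternatives, the RPKM table among them (adjusted p = 0.0556; range over the alternatives 0.00710 to 0.312).

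In the non-oxidative arm none of 3 genes passed. Taldo1, transaldolase, had 357, 613 and 554 TPM in the AML mice, against 744, 788 and 724 TPM in the MPN mice. The groups did not overlap, AML replicate 1 was the lowest by far, and the test just missed its threshold (log2 difference -0.60, 95% interval -1.07 to -0.14, adjusted p = 0.0566, limma). It passed under 5 alternatives, without AML replicate 1 (adjusted p = 0.044) and without AML replicate 2 (0.0391) among them, and the range over all 17 was 0.0140 to 0.396. Tkt, transketolase, shares its carbon transfers with Taldo1 and lay the other way, with 502, 524 and 458 TPM in the AML mice, against 444, 381 and 383 TPM in the MPN mice (log2 difference 0.30, adjusted p = 0.0826). Rpia, ribose 5-phosphate isomerase, had 81.8, 95.2 and 69.6 TPM in AML and 95.1, 91.6 and 75.6 TPM in MPN mice.

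**Figure D4:**
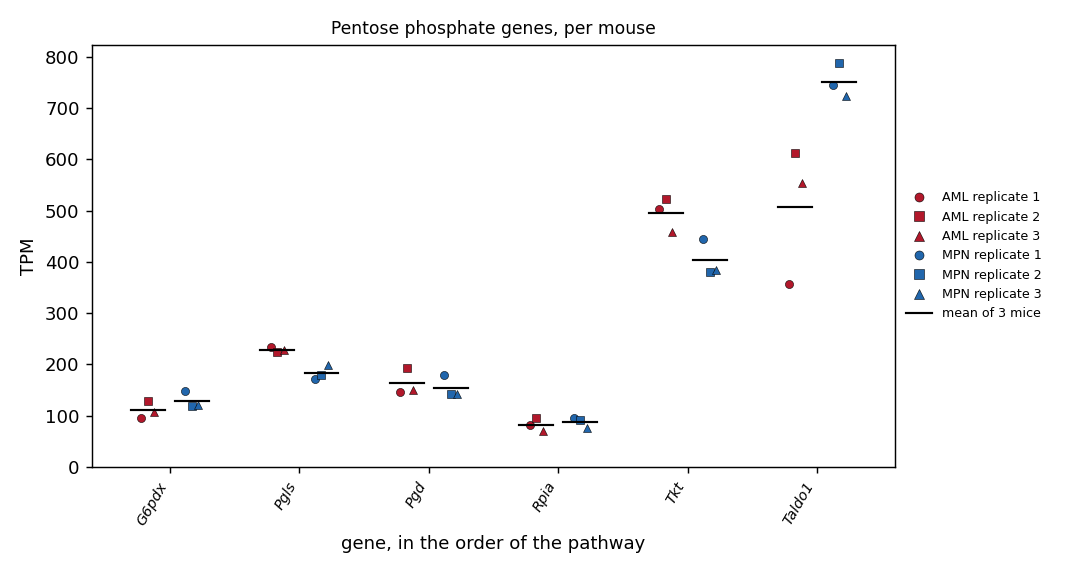
TPM of the 6 pentose phosphate members on a linear axis from 0, with AML (red) left of MPN (blue), a symbol for each mouse and a bar for the mean of 3. Only Pgls passed the test, and all 3 AML values of Taldo1, from 357 to 613 TPM, lie under the MPN values of 724 to 788 TPM.

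Members that moved together were also compared in the letters before their start. Of the 39, 38 had entries in the RefSeq promoter table (GRCm38.p6), read as 250 bases before each start, and Slc2a3 had none. The letters ACGTG, a form of the core of the hypoxia response element bound by HIF, were searched on both strands. Other forms of this core were not searched. CACGTG, the E-box bound by MYC and other factors, which contains ACGTG, was searched as well. ACGTG stood before 15 of the 38 members (39.5%), 25.2% of 9224 tested genes in the table and 18.5% of all 27025 genes in it. CACGTG stood before 6 of the 38 (15.8%), 9.97% of the tested genes and 6.86% of all. These shares count a gene with a match before any of its starts, and the 38 members had 57 windows, the 9224 tested genes 11706. By window, ACGTG stood in 33.3% of those of members and 21.7% of those of tested genes, and CACGTG in 10.5% and 8.34%. Of the 17 members that rose, 8 had ACGTG and 1 had CACGTG, and of the 5 that fell, 2 and 1. Of 15 members with a window that did not pass, 5 had ACGTG and 4 had CACGTG. A match is a description of the letters and does not show binding. The windows of 3 members that rose and of 1 that fell are shown on the strand of the gene, with these letters in capitals, because they span the range from paired to single matches and both directions. They are Ldha at chr7:46845554-46845803 (plus strand), Pgk1 at chrX:106186850-106187099 (plus), Slc2a1 at chr4:119108495-119108744 (plus) and Pfkfb3 at chr2:11502091-11502340 (minus), and the first and last of these genes have a second listed start.
Ldha: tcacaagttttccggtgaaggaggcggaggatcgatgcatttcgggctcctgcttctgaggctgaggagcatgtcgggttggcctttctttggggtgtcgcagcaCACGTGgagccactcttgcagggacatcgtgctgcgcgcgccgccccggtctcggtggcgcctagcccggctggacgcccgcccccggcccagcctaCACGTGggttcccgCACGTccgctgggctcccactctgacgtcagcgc
Pgk1: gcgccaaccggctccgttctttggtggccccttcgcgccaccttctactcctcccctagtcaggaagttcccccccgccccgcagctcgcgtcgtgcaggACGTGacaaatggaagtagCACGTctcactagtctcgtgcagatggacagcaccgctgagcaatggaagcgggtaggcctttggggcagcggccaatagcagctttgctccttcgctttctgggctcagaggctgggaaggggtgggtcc
Slc2a1: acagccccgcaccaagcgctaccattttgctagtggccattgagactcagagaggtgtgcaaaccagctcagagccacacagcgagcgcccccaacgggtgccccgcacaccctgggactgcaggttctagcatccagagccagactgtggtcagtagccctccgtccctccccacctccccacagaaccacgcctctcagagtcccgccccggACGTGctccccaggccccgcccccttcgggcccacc
Pfkfb3: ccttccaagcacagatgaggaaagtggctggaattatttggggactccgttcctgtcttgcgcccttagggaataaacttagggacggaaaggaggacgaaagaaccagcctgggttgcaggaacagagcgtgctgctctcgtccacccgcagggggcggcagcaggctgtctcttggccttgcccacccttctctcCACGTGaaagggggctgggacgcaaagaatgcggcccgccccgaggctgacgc
Ldha held the E-box at 2 places, and Pfkfb3, which fell, at 1. Pgk1 and Slc2a1 had ACGTG outside an E-box only, and Ldha had it outside as well as inside. The window of the second listed start held ACGTG without an E-box for Pfkfb3 and neither for Ldha.

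Among regulators of glycolysis, 2 of 12 tested genes rose and 2 fell (limma), where 20.1% of all tested genes rose and 10.0% fell. Egln3, a prolyl hydroxylase that marks HIF for destruction and is itself induced by HIF, had 82.9, 67.3 and 54.1 TPM in the AML mice, against 7.07, 5.17 and 6.12 TPM in the MPN mice. The lowest AML mouse was far above the highest MPN mouse (log2 fold change 3.27, adjusted p = 0.000148, limma). Myc, which activates many glycolytic genes, had 284, 230 and 215 TPM in the AML mice, against 81.8, 84.9 and 72.8 TPM in the MPN mice (log2 fold change 1.59, adjusted p = 0.000365). Hif1a, the hypoxia-regulated transcription factor, which is controlled mainly as a protein, had 34.2, 42.2 and 40.0 TPM in the AML mice, against 40.1, 39.2 and 36.4 TPM in the MPN mice (log2 difference 0.00, 95% interval -0.29 to 0.29). Arrdc4, an arrestin that limits glucose uptake, fell, with 22.3, 15.3 and 24.6 TPM in the AML mice, against 41.8, 38.0 and 52.9 TPM in the MPN mice (log2 fold change -1.07, adjusted p = 0.00907). Its paralogue Txnip overlapped, with 310, 153 and 241 TPM in AML and 244, 227 and 325 TPM in MPN mice. Vhl, the ligase that removes HIF, was the other gene that fell (log2 fold change -0.75, adjusted p = 0.00841), named after its values were seen. Both lost their call with the term for sex, where the adjusted p was 0.127 for Arrdc4 and 0.125 for Vhl, the highest of their alternatives; the lowest were 0.00194 and 0.000812.

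Of 12 tested genes induced by hypoxia outside glycolysis, 4 rose and 0 fell (limma), where 20.1% of all tested genes rose and 10.0% fell. The median log2 fold change of the 12 was 0.52, against 0.13 over all tested genes. Car12, a carbonic anhydrase, had 5.07, 5.95 and 3.91 TPM in the AML mice, against 0.68, 0.64 and 0.63 TPM in the MPN mice (log2 fold change 1.84, adjusted p = 0.000703). Bnip3, a mitophagy receptor, had 40.5, 32.7 and 31.6 TPM in the AML mice, against 14.7, 14.0 and 14.2 TPM in the MPN mice (log2 fold change 1.22, adjusted p = 0.00123). Both were clear of overlap. Vegfa and Ndrg1, each at a log2 fold change of 0.84, were the others, named after their values were seen. With the term for sex 4 genes of this list were higher, Vegfa not among them, and no alternative gave fewer than 3.

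**Figure D5:**
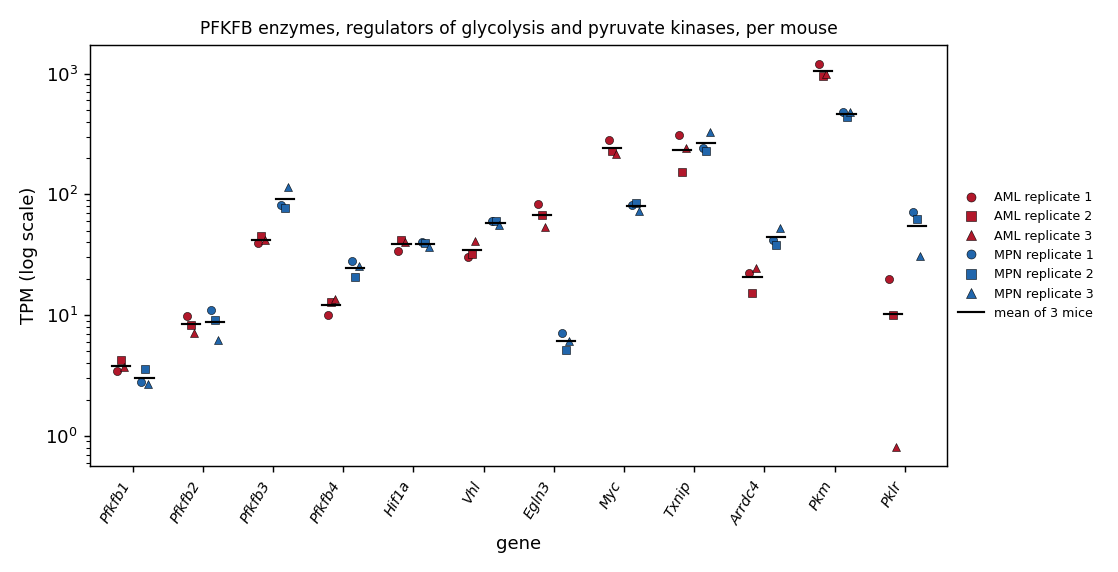
TPM on a log axis of the PFKFB enzymes, regulators of glycolysis and the pyruvate kinases, with AML (red) left of MPN (blue), a symbol for each mouse and a bar for the mean of 3. Egln3 lies at 54.1 to 82.9 TPM in AML and 5.17 to 7.07 TPM in MPN mice, Hif1a overlaps, and Pklr spans 0.81 to 20.01 TPM among the AML mice.

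The last step of glycolysis is made by the pyruvate kinases, which were not among the 39. Pkm, the main form in blood cells, had 1204, 959 and 995 TPM in the AML mice, against 477, 434 and 478 TPM in the MPN mice (log2 fold change 1.18, adjusted p = 0.000862, limma). Pklr, the form of red cells and liver, had 20.01, 10.1 and 0.81 TPM in the AML mice, against 71.1, 62.3 and 30.9 TPM in the MPN mice (log2 fold change -2.81, adjusted p = 0.0400), and lost its call under 6 of 17 alternatives, where the adjusted p ranged from 0.00268 to 0.107. In both groups Pklr followed the order of the erythroid marker sums, 395, 143 and 49.9 TPM in the AML mice and 549, 470 and 249 TPM in the MPN mice, whose part was not tested. Among the 10 tested further glycolysis genes, 2 rose and 2 fell, where 20.1% of all tested genes rose and 10.0% fell. The other riser was Slc2a9, a urate and hexose transporter (12.1, 8.98 and 9.09 TPM in AML, against 3.79, 2.80 and 4.0 TPM in MPN mice, log2 fold change 1.28, adjusted p = 0.00345). Adpgk, an ADP-dependent glucokinase, was the other to fall (log2 fold change -1.03, adjusted p = 0.0379), a call lost under 6 of 17 alternatives, with adjusted p from 0.0276 to 0.321.

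Of 14 tested glycogen and gluconeogenesis genes, 5 rose and 0 fell, where 20.1% of all tested genes rose and 10.0% fell. The list's median log2 fold change was 0.32, against 0.13 over all tested genes. Fbp1, which reverses the phosphofructokinase step, had 31.5, 10.8 and 14.4 TPM in the AML mice, against 1.96, 1.45 and 1.96 TPM in the MPN mice (log2 fold change 2.70, adjusted p = 0.00209, limma). It was highest in AML replicate 1, and no AML mouse came near the MPN range. Pygm, the muscle glycogen phosphorylase, was low, with 2.09 to 3.96 TPM in AML and 0.26 to 0.92 TPM in MPN mice (log2 fold change 1.26, adjusted p = 0.0106). Its call was lost under 1 of 15 alternatives, the term for sex (log2 fold change 1.01). It was not fitted in the RPKM table or with the filter at 5 TPM. Pgm2, a phosphoglucomutase symbol, stood at a log2 fold change of 1.06 (adjusted p = 0.000997) in the TPM table and at 0.01 under the same symbol in the RPKM table (adjusted p = 0.976, the highest of its alternatives, the lowest being 7.77e-05), so the gene behind it is uncertain. G6pc3 and Pygl, with log2 fold changes of 0.74 and 0.69, were the others, named after their values were seen. Pygl lost its call under 11 of 17 alternatives, with adjusted p from 0.00957 to 0.504, and G6pc3 under 2, with adjusted p from 0.000634 to 0.0866.

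Of 18 citrate cycle genes 7 rose and 0 fell (limma), where 20.1% of all tested genes rose, with a median log2 fold change of 0.23 and none at 2-fold, and with the term for sex none of them passed. Of 8 genes of pyruvate entry and the other dehydrogenase subunits 1 rose, the phosphatase Pdp1 that reopens the gate (log2 fold change 0.79, adjusted p = 0.0198), and of 7 other pentose phosphate genes 3 rose, H6pd, Prps1 and Prps2, at log2 fold changes of 0.57, 0.51 and 0.46. These 4 were named after their values were seen. Out of 17 alternatives, the term for sex among them, Prps1 lost its call under 8, Prps2 under 7, H6pd under 5 and Pdp1 under 3.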

How the data were processed

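Gene expression was measured by RNA-seq of poly-A RNA in c-Kit+ splenocytes of 6 mice, 3 per group, 1 library each, grouped by their labelled diagnosis. By the file headers, TPM values are RSEM output, deposited by the authors with 1 row for each symbol. RPKM values, deposited by the authors for Ensembl identifiers, served as a check, with 25213 of 25991 identifiers matched to a symbol. RSEM, TopHat2, Bowtie2, mm9 and mm10 are listed without role or version, per the submitters' processing notes. Read counts were not used here, TPM keeps no depth, and relative depth came from low RPKM values, all within 0.05 of whole steps.

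The 12223 genes that reached 1 TPM in 3 or more libraries were compared as log2(TPM + 1) with limma 3.58.1 (R 4.3.3), using its trend option and the group as sole term. Two-sided p-values were adjusted by the Benjamini-Hochberg method over these genes, and the threshold was 0.05. Fold changes on this scale understate changes of low genes. The code was tested on simulated data. The labels do not say whether mice shared litters or housing, so the p-values measure the spread between these animals. For a single gene, the smallest exact permutation p with 3 against 3 is 0.1.

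The members and all gene lists were chosen with earlier results of these data known. All members are named. Of other lists, called genes with a log2 fold change of at least 1 in size are named, at most 6 each, with Hif1a, Myc, Pkm, Txnip and Dnmt3a. Alternatives were pseudocounts of 0.1 and 5, quantile normalization, median scaling, dropping the filter, raising it to 5 TPM, the RPKM table, no trend, array weights, a term for sex and leaving out each mouse. Centring and the sum of Eno1 with Eno1b were added after seeing the data. Promoter letters and gene positions came from RefSeq on GRCm38.p6 and serve for location only.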

Additional observations from a re-analysis of the deposited data

How the results depend on the processing

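No paired analysis was possible because the replicate numbers only name the mice and pair none across groups. Of the 22 called members, none reversed under any of the 17 alternatives, of which Eno2 could be fitted under 16. Among all tested genes, 2454 rose and 1224 fell. The term for sex gave 673 and 535, array weights gave 2131 lower genes, and leaving out a mouse gave 1291 to 2303 higher and 718 to 1402 lower genes. Among the members, the term for sex gave 8 higher and 2 lower, no filter gave 3 lower, and leaving out a mouse gave 3 to 7 lower, with 3 without AML replicate 3, MPN replicate 1 or MPN replicate 2. Fits without a mouse have fewer samples, and the cause of the other shifts was not tested.

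Reversed directions occurred in members that did not pass and in Hif1a and Txnip, on the log2 scale. Slc2a3 gave -0.061 with median scaling, -0.057 with quantile normalization, -0.063 with array weights, -0.20 with the term for sex, -0.12 with centring, and -0.26 to 0.20 when a mouse was left out. Pgd gave -0.014 with median scaling, -0.026 with quantile normalization, -0.039 with the term for sex, -0.069 with centring, and -0.051 to 0.18 when a mouse was left out. Array weights gave 0.20 for Hk3 and 0.33 for Ldhb. Leaving out a mouse gave -0.62 to 0.30 for Hk3, -0.38 to 0.13 for Pfkm, -0.24 to 0.12 for Pfkfb2 and -0.20 to 0.020 for Rpia. Hif1a gave -0.082 with median scaling, -0.081 with quantile normalization, -0.14 with centring and -0.059 to 0.089 when a mouse was left out, and Txnip -0.45 to 0.060. The cause was not tested. Depth limits genes near 1 TPM, such as Eno2, most.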
